A study of Mus musculus with 14 samples.

Results

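The 41 genes described here encode proteins of the centromere, the kinetochore and the spindle assembly checkpoint of the mouse. They were taken as a list of gene names, drawn up with earlier results of these data known, and all 41 were found among the 34049 genes with any count. RNA was sequenced in bulk from flow-sorted hair follicle stem cells of the back skin, and the series title links IRX5, an Iroquois homeobox transcription factor, to repair of DNA damage and to stem cell activation. At postnatal day 18 (P18) there were 3 libraries labelled wild type (WT) and 3 labelled Irx5 knockout (Irx5KO), and at postnatal day 20 (P20) there were 4 of each. The sort kept CD34-positive, Ly-6A/E-negative cells that also carried a marker spelled CD45f in the labels. The labels name no strain, no deleted exon, no driver of a conditional allele, no sex and no treatment, and they do not say whether a library came from 1 animal or from several.

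The kinetochore is the protein plate on each centromere that holds the chromosome to spindle microtubules. Its inner layer sits on nucleosomes with the histone variant CENP-A, its outer layer (the KNL1, MIS12 and NDC80 complexes) binds microtubules, and the spindle checkpoint proteins gather on unattached kinetochores and delay anaphase. Transcripts of many of these genes are made mainly in the G2 phase and mitosis, and bulge stem cells of the hair follicle divide rarely until a new growth phase begins.

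Total estimated counts per library ranged from 13618367 to 70083873. All 8 bulge markers were present in every library, with a summed level of 7394 to 23200 TPM (a level per transcript length). A date code in the deposited tables split each age in 2, with both genotypes on each date, and the sources used here do not say what was done on it. At P20 the libraries numbered 1 and 2 carried the later date and those numbered 3 and 4 the earlier one. Irx5, the targeted gene, measured 29.99 and 18.2 CPM (counts scaled to a common library total) in P20 Irx5KO 1 and 2 and 107.8 and 93.6 CPM in those labelled P20 WT 1 and 2. It was at 181 and 170.2 CPM in those labelled P20 Irx5KO 3 and 4 and at 33.3 and 37.6 CPM in those labelled P20 WT 3 and 4, so that in libraries 3 and 4 it went against the labels. Its P18 range was 48.0 to 73.4 CPM under the Irx5KO label and 93.9 to 132 CPM under the WT label, where P18 WT 3 also carries the word het in its deposited table. Every direction between genotypes below is that of the labels. Olfactory and vomeronasal receptor genes made up 1.78% of all counts in P18 WT 1, 5.37% in P18 WT 2 and 2.37% in P20 WT 2, against at most 0.605% elsewhere, and these 3 are called the receptor-rich libraries. The p-values rest on how far single libraries spread, and since no label ties a library to its own animal, that spread may be technical. Also, in bulk RNA fewer dividing cells and less RNA per dividing cell cannot be told apart.

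Promoters are shown first, because 2 short motifs are known from genes transcribed late in the cell cycle. The CHR element is bound by the MuvB complexes that repress such genes in resting cells and activate them in cycling ones, and the CCAAT box is bound by NF-Y. RefSeq promoters of the GRCm38.p6 build, from 250 bases before to 50 bases after each gene start, were matched for 36 of the 41 genes (40 entries). Incenp, Nsl1, Ska1, Spc24 and Zwilch had no entry. The 4 stretches below are the 250 bases before the start, 5′ to 3′. They belong to the 2 strongly varying genes Bub1b and Kntc1 and to Zw10 and Mis12, 2 of the least varying of the 41. Capitals mark CHR letters (TTTGAA or TTCGAA) and CCAAT boxes, read on both strands.
Bub1b, chr2:118597961-118598210, plus strand: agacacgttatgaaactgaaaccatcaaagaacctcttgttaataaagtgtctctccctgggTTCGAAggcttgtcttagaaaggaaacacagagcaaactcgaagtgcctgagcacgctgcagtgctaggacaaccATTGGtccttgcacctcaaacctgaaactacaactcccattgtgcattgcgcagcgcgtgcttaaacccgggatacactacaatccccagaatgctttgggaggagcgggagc
Kntc1, chr5:123749476-123749725, plus strand: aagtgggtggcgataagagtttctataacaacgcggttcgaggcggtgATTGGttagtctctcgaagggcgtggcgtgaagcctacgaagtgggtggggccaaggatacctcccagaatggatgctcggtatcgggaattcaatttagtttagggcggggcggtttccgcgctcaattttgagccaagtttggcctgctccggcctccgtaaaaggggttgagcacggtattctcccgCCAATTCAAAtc
Zw10, chr9:49055331-49055580, plus strand: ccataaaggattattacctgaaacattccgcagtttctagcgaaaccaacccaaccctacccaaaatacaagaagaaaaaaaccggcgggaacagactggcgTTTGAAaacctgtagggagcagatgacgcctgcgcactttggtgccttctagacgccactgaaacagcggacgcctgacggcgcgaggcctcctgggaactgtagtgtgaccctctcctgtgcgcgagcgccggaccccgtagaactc
Mis12, chr11:71019361-71019610, plus strand: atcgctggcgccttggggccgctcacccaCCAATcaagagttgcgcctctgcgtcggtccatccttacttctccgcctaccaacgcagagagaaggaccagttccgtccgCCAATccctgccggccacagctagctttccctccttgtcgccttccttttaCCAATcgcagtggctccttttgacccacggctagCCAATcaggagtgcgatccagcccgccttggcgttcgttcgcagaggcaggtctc
In Kntc1 the CCAAT box and the CHR letters next to the start share 1 base. Zw10 held CHR letters and no CCAAT box, and Mis12 held 4 CCAAT boxes and no CHR letters. Over all 300 bases, CHR letters were in 20 of the 40 entries (50%), against 19.2% of 32851 RefSeq promoters of the same length. CCAAT was in 27 of 40 (67.5%), against 37.4% of all. The E2F letters TTCCCGC or TTGGCGC were in 10 of 40 (25%), against 6.81% of all. Among the 11 entries of genes whose highest library was at least 100 times the lowest, 7 held CHR letters and 9 held CCAAT. Among the 13 entries of genes with a ratio under 10, these counts were 5 and 7. The E2F letters split the other way, in 1 of the 11 and 4 of the 13. Among the 13, Bub3 and Mad1l1 each had 2 entries, and those of Bub3 overlapped and held the same CHR and CCAAT sites. Cenpk also had more than 1 of the 40 entries, so some genes were counted repeatedly. These matches describe letters in a window and no binding.

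Levels of the 41 genes varied widely between libraries of the same labelled group at P20. Summed over the 41 genes, the level per transcript length was 183, 220 and 185 TPM in the libraries labelled P18 Irx5KO 1 to 3 and 272, 599 and 199 TPM in P18 WT 1 to 3. At P20 it was 169, 199, 982 and 952 TPM in Irx5KO 1 to 4 and 416.5, 446, 128 and 137 TPM in WT 1 to 4. The libraries labelled P20 Irx5KO 3 and 4 were therefore the richest in these transcripts and P20 WT 3 and 4 the poorest. In 25 of the 41 genes both P20 Irx5KO 3 and 4 lay above all 12 other libraries, where 5.84% of the 24592 genes tested did so. In 21 of the 41 both P20 WT 3 and 4 lay below all 6 P18 libraries, where 23.1% of all genes did so. Mean levels over the 14 libraries were highest for Cenpc1, the inner kinetochore scaffold CENP-C, at 28.9 TPM, and for Incenp, the scaffold of the chromosomal passenger complex, at 27.7 TPM. They were lowest for Sgo1, the shugoshin that protects centromeric cohesin, at 1.30 TPM, and for Ska1 of the SKA complex at 1.78 TPM.

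**Figure D1:**
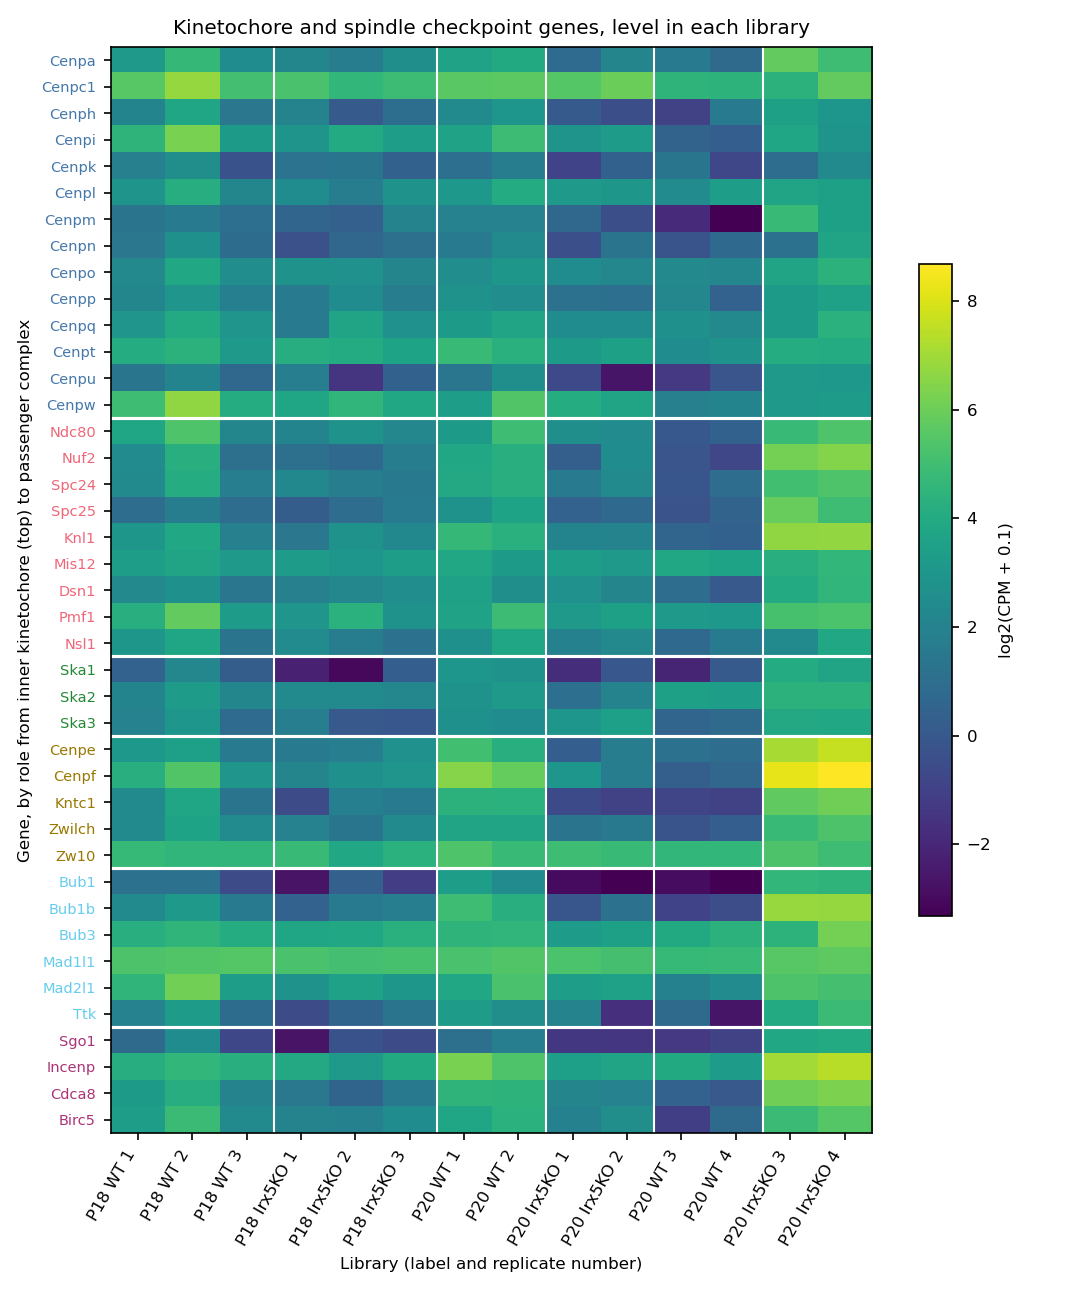
Level of each of the 41 genes (rows, grouped by role) in each of the 14 libraries (columns, by label) as log2(CPM + 0.1), where colour gives the level and white lines part the roles, groups and P20 dates. The libraries labelled P20 Irx5KO 3 and 4 are bright for most rows and P20 WT 3 and 4 dark, while Mad1l1, Zw10 and Mis12 keep nearly 1 colour across the row.

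The genes fell along a wide range of variability. The ratio of the highest to the lowest CPM over the 14 libraries was smallest, at 1.98, for Mad1l1, the checkpoint protein MAD1 that anchors MAD2 at kinetochores. Among genes with more than 3 counts in every library it was largest, at 363, for Cenpf, a large protein of the fibrous corona. It was under 10 in 12 genes, from 10 to 100 in 17 and at least 100 in 12, with a median of 32.2. For 2 of these genes, Bub1 and Cenpm, a library had 0 counts and the ratio is a lower bound set at 3 counts in that library. In 4 others the lowest library had 1 or 2 counts, and the ratio is loose (exact 95% intervals for counting error only). It was 889 (158 to 35270) for Ska1, 472 (84.3 to 18670) for Ttk, 284.5 (78.1 to 2361) for Sgo1 and 151 (40.9 to 1257) for Cenpu. Among 10495 genes with a mean of at least 8 CPM the median ratio was 3.455, near those of Zw10 (3.00) and Mis12 (3.24), and 18.1% had a ratio over 10. Of the 41, 27 reached that mean, and 66.7% of these had a ratio over 10. By role the median ratio was 16.5 for the 14 inner kinetochore genes, 46.7 for the 9 outer kinetochore genes and 17.7 for the 3 SKA genes. It was 162 for the 5 genes of the fibrous corona and the RZZ complex, 141 for the 6 checkpoint genes and 107 for the 4 shugoshin and passenger complex genes. Of the 12 genes with a ratio under 10, 6 were inner kinetochore genes (Cenpo, Cenpt, Cenpc1, Cenpl, Cenpq and Cenpp) and 3 belonged to the MIS12 complex (Mis12, Pmf1 and Nsl1).

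**Figure D2:**
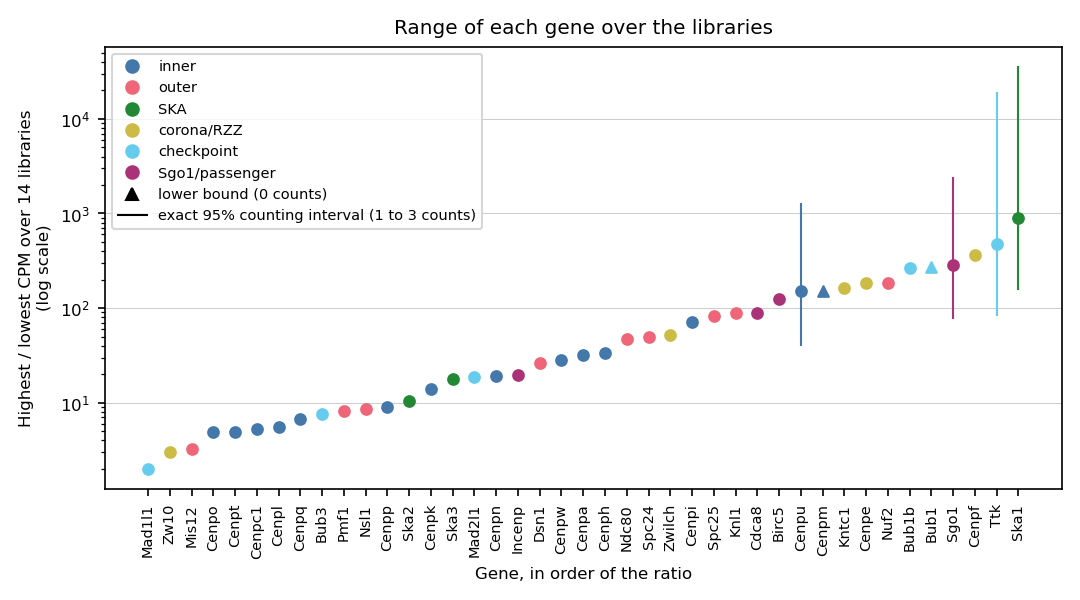
Ratio of the highest to the lowest CPM over the 14 libraries for each gene, on a log axis, with genes in order of the ratio and colour giving the role. Triangles are lower bounds for Bub1 and Cenpm, which had 0 counts in at least 1 library, and vertical lines are exact 95% counting intervals for Cenpu, Sgo1, Ttk and Ska1, whose lowest library had 1 or 2 counts. The ratios run from 1.98 (Mad1l1) to 363 (Cenpf) among the other genes.

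Single complexes held both kinds of gene. In the RZZ complex, which brings dynein to the kinetochore, Kntc1 had a ratio of 162 and Zwilch 52.3, but Zw10, whose product also acts in membrane traffic outside mitosis, had 3.00. In the MIS12 complex Dsn1 had 26.3 and Mis12 3.24. Among the checkpoint genes Bub1b (BubR1) had 264, while Mad1l1 had 1.98 and Bub3, which carries BUB1 and BubR1 to kinetochores, 7.64. Mad1l1 (ENSMUSG00000029554.15, chr5:140008689-140321552, minus strand, GRCm38) was at 34.1 to 37.6 CPM in P18 Irx5KO and 40.1 to 45.8 CPM in P18 WT. At P20 it was at 38.3, 35.4, 47.4 and 52.6 CPM in Irx5KO 1 to 4 and at 37.8, 42.6, 26.6 and 27.4 CPM in WT 1 to 4. P20 Irx5KO 3 and 4 were its highest libraries and P20 WT 3 and 4 its lowest, on a far smaller scale than for Cenpf.

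Between the P20 libraries numbered 1 and 2, 8 of the 41 genes were lower in those labelled Irx5KO, 0 were higher and 33 did not pass. The test was edgeR's quasi-likelihood test of 2 against 2 libraries, with Benjamini-Hochberg adjustment over 24592 genes and a threshold of 0.05. The 8 are 19.5% of the 41, where 0.516% of all genes were lower. The median log2 difference (Irx5KO minus WT) over the 41 was -1.75, and 39 of 41 values were negative, against -0.05 over genes averaging 8 CPM or more. In 33 of the 41 both WT libraries lay above both Irx5KO libraries, as in 17.4% of all genes. The 8 exceptions were Cenpc1, Cenpl, Cenpw, Dsn1, Mad1l1, Mis12, Ska3 and Zw10.

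The fibrous corona and RZZ genes held 3 of the 8 calls. Kntc1 (ENSMUSG00000029414.11, chr5:123749716-123821593, plus strand, GRCm38), the ROD subunit of the RZZ complex, was at 20.9 CPM in WT 1, at 20.6 CPM in WT 2 and at 0.547 and 0.419 CPM in Irx5KO 1 and 2. Its log2 difference was -5.41 ± 0.58 (SE, edgeR adjusted p = 0.000292), the largest fall apart from Bub1. Cenpf was at 91.5 and 58.2 CPM in WT and 7.89 and 3.23 CPM in Irx5KO (-3.75 ± 0.50, adjusted p = 0.00413). Cenpe, the kinesin that moves chromosomes to the spindle equator, was at 33.5 and 18.5 CPM in WT and 1.09 and 3.29 CPM in Irx5KO (-3.57 ± 0.52, adjusted p = 0.00483). In each of these genes the pairs did not overlap. Zwilch did not pass (-2.34 ± 0.60, adjusted p = 0.138), and Zw10 was at 42.0 and 28.5 CPM in WT and 30.6 and 27.2 CPM in Irx5KO.

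Of the 6 checkpoint genes 2 were lower. Bub1b (ENSMUSG00000040084.9, chr2:118598211-118641591, plus strand, GRCm38), whose product inhibits the anaphase-promoting complex, was at 31.1 and 18.9 CPM in WT and 0.835 and 2.21 CPM in Irx5KO (-4.04 ± 0.50, adjusted p = 0.00123). Bub1, the kinase that marks centromeric chromatin for shugoshin, had 398 and 137 counts in WT and 1 and 0 in Irx5KO. The ratio of its scaled sums was 565, with an exact 95% interval of 101 to 22360 that covers counting error only (adjusted p = 0.00468). The fitted difference of such a gene depends on the prior count and is left out. Ttk, the kinase MPS1 that starts the checkpoint, was at 9.81 and 5.97 CPM in WT and 4.03 and 0.209 CPM in Irx5KO and did not pass. Mad2l1, Bub3 and Mad1l1 did not pass either.

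Of the 4 shugoshin and passenger complex genes 2 were lower, and of the 9 outer kinetochore genes 1. Incenp was at 78.2 and 41.2 CPM in WT and 10.9 and 12.7 CPM in Irx5KO (-2.34 ± 0.39, adjusted p = 0.00935). Cdca8, the passenger subunit borealin, was at 22.0 and 21.7 CPM in WT and 4.32 and 3.86 CPM in Irx5KO (-2.42 ± 0.45, adjusted p = 0.0207). Knl1, the platform on which BUB proteins load, was at 25.3 and 19.7 CPM in WT and 4.23 and 4.01 CPM in Irx5KO (-2.45 ± 0.38, adjusted p = 0.00555). These 3 genes kept a measurable level in every library, unlike Bub1. The 4 genes of the NDC80 complex, which grips the microtubule, were each negative and did not pass, from Ndc80 at -1.78 ± 0.61 to Spc25 at -2.72 ± 0.63 (adjusted p = 0.0788). None of the 14 inner kinetochore genes passed, with 13 negative, 5 at an unadjusted p under 0.05 and a median of -1.39. Cenpa, the centromeric histone, was at 12.1 and 15.4 CPM in WT and 1.73 and 4.31 CPM in Irx5KO (-2.19 ± 0.64, adjusted p = 0.230).

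The count of 8 rested on few libraries. It was 4 without the library labelled P20 Irx5KO 1, 4 without P20 Irx5KO 2, 16 with DESeq2 (which called 1.21% of all genes lower) and 1 when the spread was estimated from these 4 libraries alone. Kntc1 was the gene that passed in the last case. Except for DESeq2, the share of all genes called in these settings is not given here. A change in these genes and a change in the whole call rate therefore cannot be told apart there. The proliferation genes Mki67 and Top2a were also lower in the same libraries, at -4.32 ± 0.45 (adjusted p = 0.00043) and -4.63 ± 0.37 (adjusted p = 3.83e-05).

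Between the P20 libraries numbered 3 and 4 the direction was the opposite, with 21 of the 41 genes higher in those labelled Irx5KO, 0 lower and 20 not passing (same test, 2 against 2 libraries). The 21 are 51.2% of the 41, where 2.2% of all genes were higher. All 41 values were positive, with a median of 3.58, against -0.01 over genes with at least 8 CPM. In 39 of the 41 both Irx5KO libraries lay above both WT libraries, as in 15.7% of all genes, with Cenpc1 and Cenpk as the exceptions. The 21 included all 8 genes that were lower in libraries 1 and 2, which are 38.1% of the 21. With DESeq2 30 were higher, where it called 4.45% of all genes higher, and with edgeR 17 to 23 when 1 library was left out.

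All 4 shugoshin and passenger complex genes were higher here. Cdca8 stood at 66.8 CPM in Irx5KO 3, at 80.2 CPM in Irx5KO 4 and at 1.27 and 0.909 CPM in WT 3 and 4 (6.06 ± 0.54, edgeR adjusted p = 1.26e-05). Incenp was at 128 and 169.7 CPM in Irx5KO and 15.4 and 9.45 CPM in WT (3.58 ± 0.41, adjusted p = 0.00012). Birc5, the passenger subunit survivin, was at 28.8 and 46.1 CPM against 0.367 and 1.70 CPM (5.23 ± 0.77, adjusted p = 0.000917). Sgo1 was at 14.03 and 16.2 CPM against 0.300 and 0.424 CPM (5.38 ± 1.19, adjusted p = 0.0159). For Cdca8, Birc5 and Sgo1 the WT libraries lay near or under 1 CPM, and Incenp was the gene of this group that WT kept at a clear level.

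Of the fibrous corona and RZZ genes 4 of 5 were higher. Cenpf (ENSMUSG00000026605.14, chr1:189640606-189688086, minus strand, GRCm38) reached 301 and 411 CPM in Irx5KO, its 2 highest libraries, against 1.13 and 1.45 CPM in WT, its 2 lowest (8.12 ± 0.62, adjusted p = 1.98e-05). Cenpe was at 138 and 199.9 CPM against 2.17 and 1.88 CPM (6.38 ± 0.60, adjusted p = 3.80e-05). Kntc1 was at 54.1 and 67.7 CPM against 0.467 and 0.424 CPM (7.08 ± 0.62, adjusted p = 1.14e-05). Both pairs of Kntc1 libraries that were low at P20, Irx5KO 1 and 2 and WT 3 and 4, held 0.419 to 0.547 CPM. Zwilch was higher by 5.19 ± 0.69, and Zw10 did not pass (0.53 ± 0.32, adjusted p = 0.439).

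Of the 6 checkpoint genes 3 were higher. Bub1b was at 114 and 110.1 CPM in Irx5KO and 0.433 and 0.606 CPM in WT (7.77 ± 0.61, adjusted p = 7.68e-06). Bub1 had 352 and 409 counts against 1 and 0, a scaled ratio of 1085 with an exact 95% interval of 194 to 42900 (adjusted p = 0.000657). Mad2l1, the MAD2 protein of the mitotic checkpoint complex, was at 40.6 and 35.0 CPM against 3.77 and 5.45 CPM (3.04 ± 0.56, adjusted p = 0.0049). Mad1l1, its partner, did not pass (0.89 ± 0.25, adjusted p = 0.0543), and neither did Bub3 (1.35 ± 0.46) or Ttk (4.62 ± 1.41, adjusted p = 0.0924). Ttk had 1 count in the library labelled P20 WT 4 and 51 in P20 WT 3.

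Of the 9 outer kinetochore genes 6 were higher, namely Knl1, Dsn1 and the 4 NDC80 complex genes. Knl1 was at 103 and 106.5 CPM in Irx5KO and 1.40 and 1.21 CPM in WT (6.32 ± 0.46, adjusted p = 6.02e-06), the smallest adjusted p among the 41. Nuf2 was at 72.3 and 88.8 CPM against 0.800 and 0.485 CPM (6.93 ± 0.93, adjusted p = 0.00127). Spc25 differed by 5.48 ± 0.72, Ndc80 by 5.06 ± 0.72 and Spc24 by 4.80 ± 0.69 in the same libraries. In the MIS12 complex Dsn1 was at 16.2 and 23.9 CPM against 1.87 and 0.909 CPM (3.84 ± 0.73, adjusted p = 0.00559). Mis12 was at 18.1 and 25.0 CPM against 14.6 and 12.4 CPM and did not pass, and Pmf1 and Nsl1 did not pass. Of the SKA genes, which strengthen the grip of NDC80, Ska3 was higher (3.24 ± 0.74, adjusted p = 0.0203), and Ska1 (4.77 ± 1.56) and Ska2 (0.97 ± 0.59) did not pass.

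The inner kinetochore held 3 calls in 14 genes. Cenpa was at 54.7 and 30.5 CPM in Irx5KO and 2.93 and 1.70 CPM in WT (4.19 ± 0.70, adjusted p = 0.00231). Cenpm had 402 and 205 counts in Irx5KO and 5 and 0 in WT (adjusted p = 0.00383). Cenpi was at 13.3 and 7.24 CPM against 1.30 and 1.09 CPM (3.09 ± 0.64, adjusted p = 0.0107). The Irx5KO values of Cenpi did not exceed its highest P18 level, 78.0 CPM in P18 WT 2. The median over the 14 genes was 1.79, below the 4.80 of the outer kinetochore and the 6.38 of the corona and RZZ genes, and the difference between these roles was not tested. Cenpc1 (0.81 ± 0.44), Cenpl (0.61 ± 0.63) and Cenpw (1.24 ± 0.67) were among the smallest values.

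The difference between the dates was tested as an interaction, the labelled genotype difference in libraries 1 and 2 minus that in libraries 3 and 4. The split by date was chosen because an earlier report of these data had found opposite differences on the dates. The tests within dates and the interaction are therefore no independent test of that reversal. The interaction passed in 26 of the 41 genes, all lower, which is 63.4% against 2.68% of all genes. All 41 values were negative, with a median of -5.57. The largest with a measurable level in every library were Kntc1 (-12.49 ± 0.85, edgeR adjusted p = 5.34e-07), Cenpf (-11.87 ± 0.79) and Bub1b (-11.81 ± 0.78). Cenpc1 (-0.69 ± 0.61), Zw10 (-0.82 ± 0.45), Mis12 (-0.997 ± 0.64) and Mad1l1 (-1.02 ± 0.35) had the smallest and did not pass. By role the counts were 6 of 14 inner genes, 7 of 9 outer genes, 1 of 3 SKA genes, 4 of 5 corona and RZZ genes, 4 of 6 checkpoint genes and 4 of 4 shugoshin and passenger genes. The interaction was also negative for Irx5 itself (-4.37 ± 0.38, adjusted p = 5.36e-06), Mki67 (-11.85 ± 0.68) and Top2a (-11.52 ± 0.55).

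**Figure D3:**
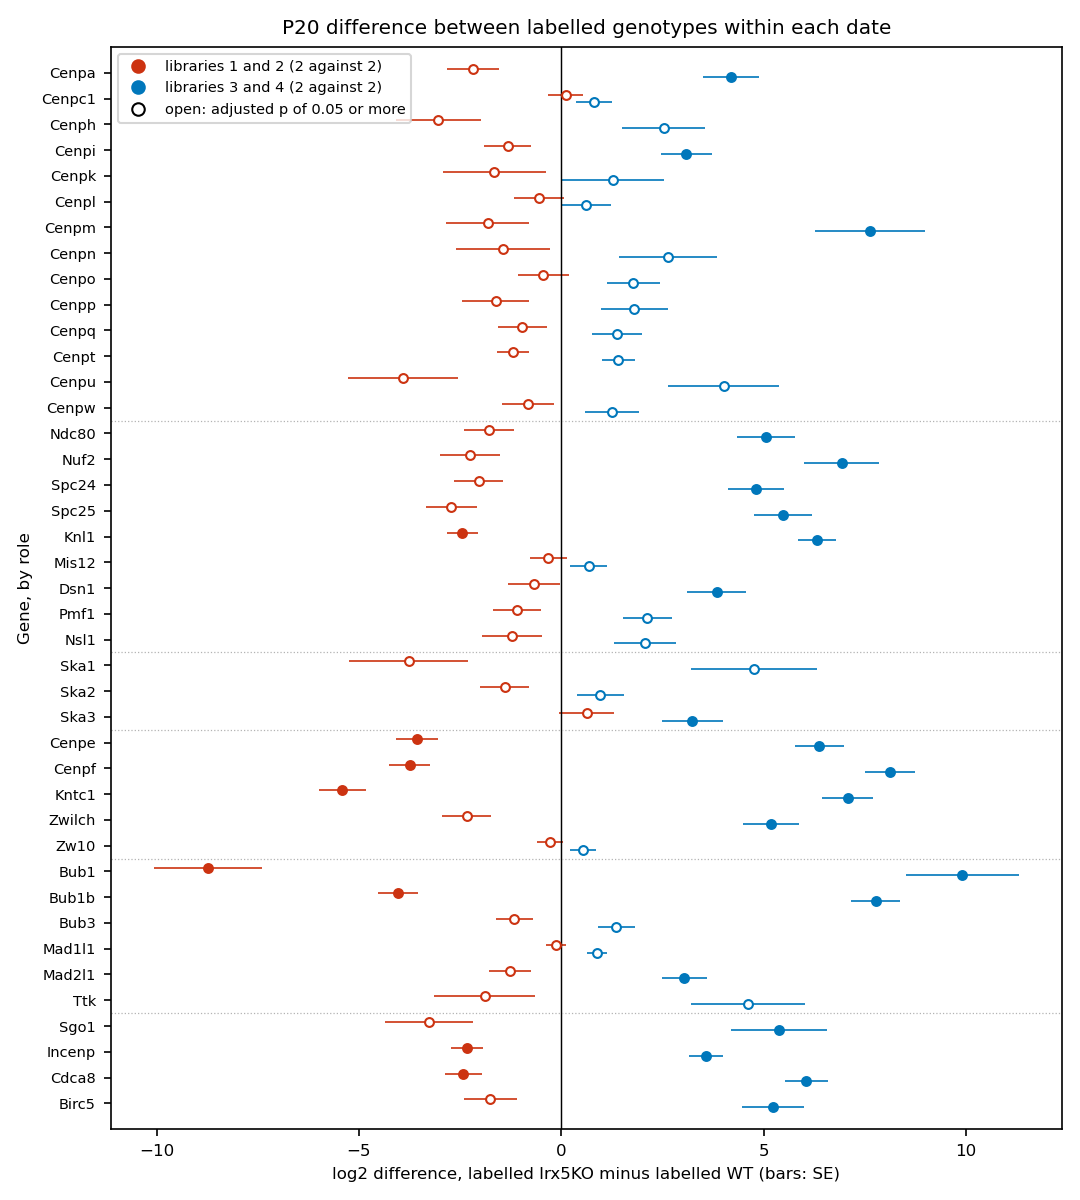
log2 difference, labelled Irx5KO minus labelled WT, with its SE (bars) for each gene at P20, in red for libraries 1 and 2 and in blue for libraries 3 and 4 (2 against 2 libraries each), with filled points for an adjusted p under 0.05. The 8 filled red points lie left of 0 and the 21 filled blue points right of it, and Mad1l1, Zw10, Mis12, Cenpl and Cenpc1 stay near 0 on both dates.

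Other cell types and compartments were read beside these differences. In libraries 3 and 4 the hair germ and matrix markers summed to 125 and 72.6 TPM in Irx5KO and 119 and 171 TPM in WT, with 0 of 8 passing, and Shh was at 0 in Irx5KO 4. The bulge markers summed to 12050 and 11550 TPM in Irx5KO and 15030 and 23200 TPM in WT, with 0 of 8 passing. Endothelial markers summed to 3.57 and 1.56 TPM in Irx5KO and 3.17 and 7.15 TPM in WT, with 1 of 5 lower, and Cdh5, Kdr, Tie1 and Emcn were at 0 in both Irx5KO libraries. Fibroblast markers summed to 56.8 and 48.0 TPM against 84.8 and 56.4 TPM, with 1 of 6 lower. Of the sebaceous markers 1 of 5 was higher (79.9 and 113 TPM against 45.6 and 40.1 TPM in sum), with Mc5r and Elovl3 at 0 in both Irx5KO libraries. In libraries 1 and 2 none of the markers of these 5 types or of epidermis, infundibulum, melanocytes, leukocytes, muscle and blood passed. There the suprabasal markers summed to 3545 and 1119 TPM in Irx5KO and 1312 and 858 TPM in WT. Markers that passed in the interaction included the sebaceous Fasn (-1.86 ± 0.42) and the melanocyte Dct (-2.78 ± 0.74) as lower and the suprabasal Sbsn (2.26 ± 0.57) as higher. The part of these cell types in the kinetochore gene results was not tested.

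Pooled over both dates, 0 of the 41 genes passed between the libraries labelled Irx5KO and WT at P20 (edgeR, 4 against 4 libraries, date as a covariate), and 0 did with DESeq2. The DESeq2 share over all genes is not given here, and by edgeR 0 of all 24592 genes passed (0%). An unadjusted p under 0.05 was found for 1 of the 41, Ska3 (1.92 ± 0.63, adjusted p = 0.826), which was at 7.94, 10.7, 14.99 and 14.3 CPM in Irx5KO 1 to 4 and at 6.42, 5.65, 1.40 and 1.70 CPM in WT 1 to 4. Its Irx5KO values lay above its WT values on both dates. The next smallest p-values were those of Mad1l1 (0.38 ± 0.22), Dsn1 (1.55 ± 0.95) and Cenpc1 (0.46 ± 0.32). The median of the 41 was 0.67 with 38 positive, and it was -0.33 without P20 WT 3, -0.41 without P20 WT 4, 2.30 without P20 Irx5KO 1 and 2.23 without P20 Irx5KO 2.

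At P18, 0 of the 41 genes passed between the libraries labelled Irx5KO and WT (edgeR, 3 against 3 libraries, date as a covariate), 0 had an unadjusted p under 0.05, and DESeq2 called 0. The DESeq2 share over all genes is not given here either, and by edgeR 0 of all genes passed (0%). The smallest p-values were those of Cenpc1 (-0.71 ± 0.41), Ska3 (-0.87 ± 0.69), Cenpw (-1.12 ± 0.91) and Mad2l1 (-1.44 ± 1.27), each with an adjusted p of 0.919. The median over the 41 was -0.81 with 38 negative, against a value near 0 over genes averaging 8 CPM or more. It was 0.10 without the 3 receptor-rich libraries, 0.14 without P18 Irx5KO 1, -0.43 without P18 WT 2 and -0.43 when all genes set the scaling. With 1 library left out the median ranged from -1.18 to 0.14, so it moved in both directions. All 3 WT libraries lay above all 3 Irx5KO libraries in 4 of the 41 (Mad1l1, Cdca8, Cenpf and Incenp), as in 19.5% of all genes.

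In some genes the library labelled P18 WT 2 lay far above the other P18 libraries. It did not set the whole P18 spread. The widest P18 ratio of highest to lowest CPM, 242, was that of Ska1, which had 1 count in P18 Irx5KO 2. Cenpw, an inner kinetochore histone-fold protein, was at 13.0, 23.6 and 14.02 CPM in P18 Irx5KO 1 to 3 and at 30.4, 103 and 17.4 CPM in P18 WT 1 to 3. Mad2l1 was at 6.82, 11.6 and 8.02 CPM and at 23.0, 70.5 and 10.6 CPM in the same order, and Cenpi at 7.31, 16.1 and 10.6 CPM and at 21.9, 78.0 and 9.16 CPM. In all 3 genes P18 WT 2 was the highest of the 14 libraries and P18 WT 1 the next at P18. P18 WT 2 was the highest of all 14 libraries in 8 of the 41 genes, P20 Irx5KO 4 in 23, P20 Irx5KO 3 in 8 and P20 WT 1 in 2. Mki67 and Top2a were at 36.5 and 38.7 CPM in P18 WT 2, against 1420 and 635 CPM in P20 Irx5KO 4. P18 WT 2 also held the highest share of receptor gene counts (5.37%), and the part of this in the values was not tested.

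Reads of these genes fell on different transcripts in different libraries. The 41 genes have 230 transcripts in the deposited tables, of which 111 are annotated as protein coding, 57 as retained intron, 33 as processed transcript and 29 as targets of nonsense-mediated decay. In the libraries labelled P20 Irx5KO 3 and 4, 84.4% and 88.7% of the counts of the 41 genes lay in protein-coding transcripts. In P18 this share was 62.2%, 66.5% and 65.3% in Irx5KO 1 to 3 and 59.2%, 50.2% and 67.6% in WT 1 to 3. It was 64.4% and 68.0% in P20 Irx5KO 1 and 2, 80.6% and 67.7% in P20 WT 1 and 2, and 77.2% and 71.2% in P20 WT 3 and 4. Retained-intron transcripts held 6.20% and 5.15% in P20 Irx5KO 3 and 4 and 21.6% to 34.0% at P18. Over all genes the protein-coding share moved less, from 67.9% in P18 WT 2 to 83.7% in P20 WT 4, and was 80.5% and 79.3% in P20 Irx5KO 3 and 4. The kallisto tool divides reads among transcripts that share sequence by a statistical model, so these shares are estimates. The whole spans of several of the genes, introns included, also overlap another gene on the opposite strand (Ska3 and Sap18, Bub3 and Fgfr2, Zwilch and Lctl, Mis12 and Derl2, Cenpq and Mut). No strand setting was given in the sources used here, so reads of any sequence that both transcripts share could not be told apart. Whether their transcripts share sequence was not checked.

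The leading transcript of single genes, the one with the highest count, differed between libraries. Over the P18 libraries it was not annotated as protein coding in 16 of the 41 genes, against 3 in P20 Irx5KO 3 and 4. In 22 it differed between these 2 sets of libraries. No share over all genes was computed beside these counts, and in genes with few counts the leading transcript can differ by counting error. Birc5 (ENSMUSG00000017716.15, chr11:117849251-117855743, plus strand, GRCm38) has 2, Birc5-201 of 947 bases and Birc5-202 of 3334 bases, both annotated as protein coding. Birc5-201 was at 0 to 1.26 CPM at P18 and at 27.1 and 42.7 CPM in P20 Irx5KO 3 and 4, and Birc5-202 at 3.17 to 28.0 CPM at P18 and at 1.76 and 3.47 CPM. P18 WT 2, with 28.0 CPM of the long form, held 0.52 CPM of the short one. Ndc80-201, protein coding, was at 0 CPM in 5 of the 6 P18 libraries and at 15.5 and 36.4 CPM in P20 Irx5KO 3 and 4. Ndc80-205, annotated for nonsense-mediated decay, was at 2.46 to 20.1 CPM at P18 and at 5.20 and 2.03 CPM. Ndc80 has 2 coding transcripts, which together held 0, 0 and 25 counts in P18 Irx5KO 1 to 3. In P18 WT 1 to 3 they held 0, 14 and 18 counts. For Mad2l1 the 7557-base Mad2l1-202 was at 67.2 CPM and the 1725-base Mad2l1-201 at 3.18 CPM in P18 WT 2, and they were at 5.07 and 29.96 CPM in P20 Irx5KO 4. For Cenpw the 4143-base Cenpw-202 was at 103 CPM in P18 WT 2 and at 6.37 and 6.25 CPM in P20 Irx5KO 3 and 4, and the 1532-base Cenpw-201 was at 0 CPM in P18 WT 2 and at 2.64 and 3.19 CPM.

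**Figure D4:**
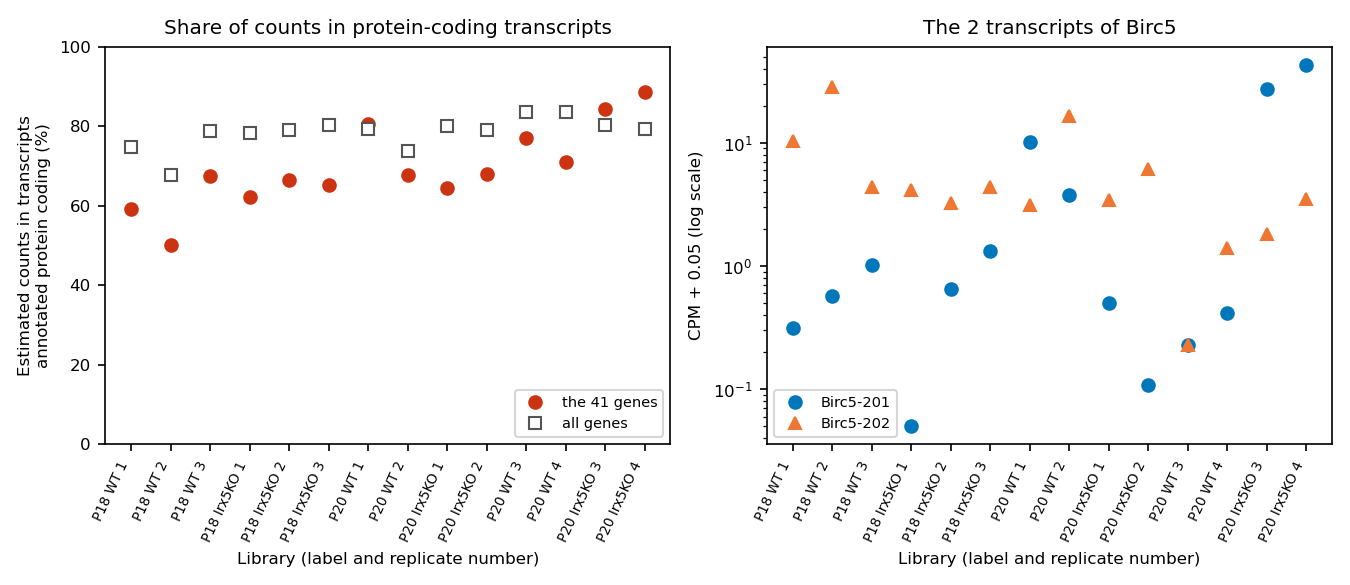
Left, share of estimated counts in transcripts annotated as protein coding (%) per library for the 41 genes (red) and all genes (open squares). Right, CPM + 0.05 on a log axis of the 2 Birc5 transcripts. The share of the 41 genes is lowest in P18 WT 2 (50.2%) and highest in P20 Irx5KO 4 (88.7%), and Birc5-201 lies well above Birc5-202 in P20 Irx5KO 3 and 4 and P20 WT 1.

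When only protein-coding transcripts were summed, a setting chosen after seeing the data, 7 of the 41 were lower in libraries 1 and 2 (0.507% of the 19339 genes tested), 16 higher in libraries 3 and 4 (2.33%) and 20 lower in the interaction (3.02%). The medians were -2.12, 4.44 and -7.02. In libraries 3 and 4 the calls of 5 genes were lost while their differences stayed large with wider errors. They were Cdca8 (5.63 ± 1.69, adjusted p = 0.0774), Cenpa (6.495 ± 2.16), Ndc80 (6.76 ± 2.32), Cenpi (4.68 ± 1.82) and Ska3 (3.16 ± 1.20). Birc5 kept its call at 5.28 ± 0.81 (adjusted p = 0.00216). At P18 the median was -0.77.

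Ages were compared within a labelled genotype, and since the dates of P18 and P20 libraries differ, age and date cannot be told apart. In the libraries labelled Irx5KO, 0 of the 41 passed from P18 to P20 (edgeR, 4 against 3 libraries), 13 had an unadjusted p under 0.05 and DESeq2 called 11 higher. Of all genes 1.57% passed by edgeR and 2.92% were higher by DESeq2. The median was 1.66 with 38 positive, and it was -0.23 without P20 libraries 3 and 4, left out after seeing the data. Cenpf was at 4.37, 6.45 and 7.52 CPM at P18 and at 7.89, 3.23, 301 and 411 CPM at P20, so that 2 of the 4 P20 libraries lay within or near the P18 range. The smallest p-values were those of Ska3 (2.80 ± 0.82, adjusted p = 0.115), Spc25 (3.59 ± 1.35), Cdca8 (4.07 ± 1.501) and Sgo1 (4.09 ± 1.63). In the libraries labelled WT, 0 of the 41 passed, 0 had an unadjusted p under 0.05 and DESeq2 called 0. By edgeR 0.195% of all genes passed, and the share for DESeq2 is not given here. The smallest edgeR p-values in WT were those of Cenpw (-1.71 ± 0.80), Cenpc1 (-0.83 ± 0.44), Cenpi (-1.70 ± 0.99) and Mad1l1 (-0.35 ± 0.23). The median in WT was -0.16, 0.30 without P18 WT 2 and 0.60 without the receptor-rich libraries. With 1 library left out it ranged from -0.51 to 0.30.

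Other genes of the same machinery were read from lists drawn up with the members, beside the 0.516% of all genes lower in libraries 1 and 2 and the 2.2% higher in libraries 3 and 4. Of 26 further centromere and kinetochore genes, 1 was lower in libraries 1 and 2 (Knstrn, the kinastrin gene, -3.12 ± 0.53, adjusted p = 0.00981) and 9 were higher in libraries 3 and 4. The 9 included Knstrn (4.97 ± 0.58), the microtubule depolymerase gene Kif2c (6.97 ± 0.87), the mitotic kinase gene Plk1 (6.48 ± 1.04) and Hjurp (1.66 ± 0.29), whose product deposits CENP-A. Of 19 genes of the anaphase-promoting complex, the target of the checkpoint, 0 were lower in libraries 1 and 2 by edgeR, with 2 at an unadjusted p under 0.05, and 2 were higher in libraries 3 and 4. The 2 were the activator Cdc20 (5.25 ± 0.64), which the checkpoint holds back, and the ubiquitin-conjugating Ube2c (6.51 ± 0.80). Of 15 cohesin genes 0 were lower in libraries 1 and 2, with 3 at an unadjusted p under 0.05, and 4 were higher in libraries 3 and 4. They were the separase gene Espl1 (5.03 ± 0.59), its inhibitor Pttg1 (3.03 ± 0.63), Esco2 (5.89 ± 0.84) and Cdca5. Of 16 regulators of mitotic genes 2 were lower in libraries 1 and 2, Foxm1 (-2.36 ± 0.44, adjusted p = 0.0183) and Mybl2 (-2.71 ± 0.57, adjusted p = 0.0409). In libraries 3 and 4 Foxm1 (6.13 ± 0.52), Mybl2 (5.35 ± 0.65), Rbl1 (2.22 ± 0.33) and Tfdp1 (1.51 ± 0.34) were higher.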

How the data were processed

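RNA of 14 libraries was sequenced as single-end reads and quantified per transcript with kallisto 0.46.2, per the labels' protocols, and mm10 and DESeq2 are named in the submitters' processing notes. The deposited tables hold estimated counts and TPM values that the authors' kallisto runs gave per transcript, per the file headers. The annotation behind them, the strand setting and DESeq2's use were not given in the sources used here. Transcripts were matched to GENCODE vM21 (116816 of 118489; unmatched ones held 1.19% to 2.59% of the counts and entered no sum). The estimated counts were added up per gene and rounded to whole numbers, TPM were summed per gene for levels, and CPM used the scaled library totals.

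Genes were tested with edgeR 4.0.16 (quasi-likelihood, robust, R 4.3.3, limma 3.58.1) on all 14 libraries, with TMM factors from genes with a mean of at least 8 CPM, the default expression filter (24592 of 34049 genes kept; all 41 genes passed) and Benjamini-Hochberg adjustment at 0.05. Fits had date and genotype within age, 1 coefficient per date and genotype, or 1 per group. Standard errors are the log2 difference divided by the root of F. The members, the lists and the split of P20 by date were chosen with earlier results of these data known. All members could be named, with full statistics for those that passed, the 4 smallest p-values where none did, the genes that varied least, and up to 4 genes per pathway list. Libraries with the same replicate number deviated together at P18 (correlations of 0.374, 0.169 and 0.281). The main P18 test used date and did not pair by number. A fit with the number as a block was run as an alternative and called 0 genes of the 41 as well. Equal numbers did not always share a date, as P18 WT 2 carried the earlier date and P18 Irx5KO 2 the later one. No 2 libraries of a group agreed within sampling noise (the chi-square statistic over its degrees of freedom was 61.2 to 437). Alternatives were DESeq2 1.42.0, other scalings and filters, only the libraries compared, no date term, the block, and leaving out libraries. The fit was tested on simulated data: in libraries 1 and 2 it recovered 32% of genes changed 4-fold and 60% of those changed 8-fold (23462 genes). The exact interval of a count ratio covers counting error only. The result of 1 marker gene is not reported here.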

Additional observations from a re-analysis of the deposited data

Results flagged for a closer look

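The labelled genotype difference at P20 differed between the dates in 26 of the 41 genes (libraries 1 and 2 minus libraries 3 and 4, interaction tested with edgeR, adjusted p under 0.05). In the fibrous corona and RZZ genes the log2 values were -12.49 for Kntc1, -11.87 for Cenpf, -9.95 for Cenpe and -7.52 for Zwilch. In the checkpoint genes they were -18.64 for Bub1, which had 0 counts in 2 libraries so that the size depends on the prior count, -11.81 for Bub1b, -4.30 for Mad2l1 and -2.52 for Bub3. In the outer kinetochore they were -9.19 for Nuf2, -8.77 for Knl1, -8.20 for Spc25, -6.84 for Spc24, -6.84 for Ndc80, -4.52 for Dsn1 and -3.21 for Pmf1. In the shugoshin and passenger genes they were -8.65 for Sgo1, -8.48 for Cdca8, -6.98 for Birc5 and -5.92 for Incenp. In the inner kinetochore they were -9.44 for Cenpm, also with 0 counts in 1 library, -7.92 for Cenpu, -6.38 for Cenpa, -5.57 for Cenph, -4.42 for Cenpi and -2.61 for Cenpt. The SKA gene Ska1 had -8.54. Under the alternative settings the calls of Bub3, Cenph, Pmf1, Ska1, Cenpt and Cenpu fell below the threshold most often. Cenpu had 2 counts in P20 Irx5KO 2, so its size is loose.

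In 2 of 82 gene and group combinations with 4 libraries, a single library stood apart from the other 3. They were Cenpn, an inner kinetochore gene, at 12.6 CPM and Nsl1 of the MIS12 complex at 13.98 CPM, both in the library labelled P20 Irx5KO 4. The rule flags about 1 in 20 by chance in a group of 1 kind. Here each group spanned both dates and the combinations shared libraries, so that rate does not apply and nothing is concluded from the share.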

How the results depend on the processing

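The 8 genes lower in libraries 1 and 2 became 16 with DESeq2, 5 with the replicate block, 5 without P20 libraries 3 and 4, 1 when only the libraries compared were used and 4 to 9 when 1 library was left out. The 21 higher in libraries 3 and 4 became 17 to 23, and the 26 of the interaction 19 to 26, when 1 library was left out. With the block these counts were 20 and 24. Other counts of 0 became 1 higher at P20 with the mean of the within-date differences, 3 lower at P20 and 1 higher with age in WT without P20 libraries 3 and 4, and 11 higher with age in Irx5KO with DESeq2. The cause of these shifts was not tested. Where libraries were left out, the fit also had fewer libraries. Except for DESeq2, the shares of all genes called in these settings are not given here. Shifts of these genes and of the whole call rate therefore cannot be told apart. The sign held in all 192, 483 and 598 values of the called genes under the alternatives, of which 167, 465 and 551 stayed past the threshold. These genes were picked by their calls in the same libraries. Where pairs did not overlap, leaving out 1 library could hardly reverse a sign. The held sign is therefore no independent support. The median at P20 ranged from -0.41 to 2.30 with 1 library left out. At P20 the correlations of libraries with the same number were 0.007, 0.372, 0.116 and 0.286 for numbers 1 to 4. The highest correlations with another number were 0.331, -0.106, 0.294 and 0.111. The Irx5KO libraries numbered 2 and 4 correlated best with their own number, and those numbered 1 and 3 did not. These values do not settle whether equal numbers mark pairs. Calls in 2 against 2 libraries depend on few libraries, and counts of 0 limit Bub1 and Cenpm.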
